A study of Homo sapiens with 9 samples.

Results

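The genes described here make, lengthen, desaturate and activate fatty acids, and so cover the supply of palmitate and palmitoyl-CoA. They are 32 genes, taken by their symbol from the 58735 genes of the deposited count table and grouped by enzyme step. Of these, 30 passed the filter on low counts and stood among the 16874 genes tested, while ELOVL2 and ACSL6 did not. RNA sequencing was carried out on 9 bulk libraries of U87, an established human glioblastoma line, with 3 libraries in each of 3 groups. Cells of the C269S group stably expressed isocitrate dehydrogenase 1 (IDH1) with the R132H mutation and a further serine for cysteine change, C269S. Cells of the IDH1mt group expressed the R132H mutant alone, and cells of the PCDH group carried the vector alone. The study asked how autopalmitoylation of the mutant enzyme, the attachment of palmitate to itself, bears on gene expression. All 3 groups were grown in DMEM with fetal bovine serum. No group expressed added wild-type IDH1, and the labels do not say how many clones stand behind each line. Nor do they say whether replicate libraries stem from separate cultures, so the p-values speak only for the spread among these 9 libraries, which may be technical.

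Palmitate is built in the cytosol from acetyl-CoA and malonyl-CoA by fatty acid synthase. Membrane enzymes then lengthen it in a cycle of condensation, reduction, dehydration and a second reduction, or place double bonds in it. Acyl-CoA synthetases couple free fatty acids to coenzyme A, which makes palmitoyl-CoA, the donor of palmitate in protein palmitoylation. A separate pathway in mitochondria makes the octanoyl precursor of lipoic acid. The R132H enzyme consumes NADPH, which fatty acid synthesis also uses, and makes 2-hydroxyglutarate.

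Total counts lay between 19108925 and 24803711 reads per library. IDH1, the introduced gene, stood at 739 ± 30.3 CPM in C269S, 677 ± 16.5 CPM in IDH1mt and 111 ± 7.97 CPM in PCDH cells (SD, n = 3 each). CPM here is the count scaled to library size with TMM factors, and these reads do not tell the introduced forms from the cell's own gene. CDKN2A, which is deleted in U87, had 0 reads in every library. Of the glial markers, S100B had at most 7 reads, GFAP 56 to 102 and OLIG2 109 to 230 reads per library. VIM and CD44 had at least 51009 and 55035 reads. Summed FPKM of 9 glioma markers was 4952 to 5154 in C269S, 5822 to 6086 in IDH1mt and 4527 to 4907 in PCDH libraries, and its part in the results was not tested. Of 4 adipocyte markers, ADIPOQ was at 0 in all libraries and the summed FPKM never exceeded 0.461. That of 3 hepatocyte markers never exceeded 0.0807, and that of 3 leukocyte markers never exceeded 0.669. Markers of neurons and endothelium were not absent. The summed FPKM of 3 neuron markers was 16.6 to 18.5 in C269S, 16.7 to 19.2 in IDH1mt and 14.4 to 16.1 in PCDH libraries. Among them, SNAP25 had 914 to 1406 reads per library. Of 3 endothelial markers, PECAM1 had 102 to 175 reads per library. The source of these reads was not tested. Mitochondrial genes took 3.18 to 3.34% of reads in C269S, 3.72 to 3.80% in IDH1mt and 2.91 to 3.35% in PCDH libraries, and the part of this difference in the results was not tested. PCDH replicate 3 stood apart from the other PCDH libraries. The chi-square per degree of freedom between its gene counts and theirs was 10.3 and 11.0, beside 3.68 to 6.37 for the other replicate pairs within groups. In bulk libraries a change in every cell and a change in the share of cells that express a gene cannot be told apart.

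Of the enzyme steps, desaturation and activation held every call: 3 of 5 desaturases and all 4 synthetases tested rose in IDH1mt against PCDH cells. The genes that supply and make palmitate passed the test in no comparison. In IDH1mt against PCDH cells, 7 of 30 members tested rose (23.3%), against 7.18% of all genes tested that rose, and 0 fell, against 6.9% that fell and 14.1% called in either direction. The 7 were the desaturases SCD5, FADS1 and FADS3 and the synthetases ACSL1, ACSL3, ACSL4 and ACSL5. The members' median log2 fold change was 0.09, beside -0.01 over all genes tested, and 25 of 30 lay above 0. For the count of 0 that fell, 2 members were lower at an unadjusted p under 0.05 in edgeR, and DESeq2 also called 0. In C269S against PCDH cells, 1 member rose (3.33%), ACSL4, against 0.883% of all genes, and 0 fell, against 0.533% and 1.42% called in either direction, with 2 lower at an unadjusted p under 0.05 and 0 by DESeq2. In C269S against IDH1mt cells, 0 rose, against 2.29% of all genes, with 0 higher at an unadjusted p under 0.05 and 0 by DESeq2. There, 2 members fell (6.67%), SCD and ACSL5, against 2.61% of all genes that fell and 4.9% called in either direction. Without PCDH replicate 3, 9 members rose and 1 fell in IDH1mt against PCDH cells, 5 rose and 1 fell in C269S against PCDH cells, and 3 fell in C269S against IDH1mt cells. Calls over all genes also went up without that library, with 17171 tested. They were 1574 higher and 1474 lower in IDH1mt against PCDH cells, beside 1211 and 1164 with all 9 libraries. For C269S against PCDH they were 548 and 355, beside 149 and 90. For C269S against IDH1mt they were 609 and 635, beside 387 and 440. The 3 comparisons share libraries and are not independent. Calls rest on edgeR's quasi-likelihood test with Benjamini-Hochberg adjustment over all 16874 genes and a threshold of 0.05, and every adjusted p below is from that test unless another is named.

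**Figure D1:**
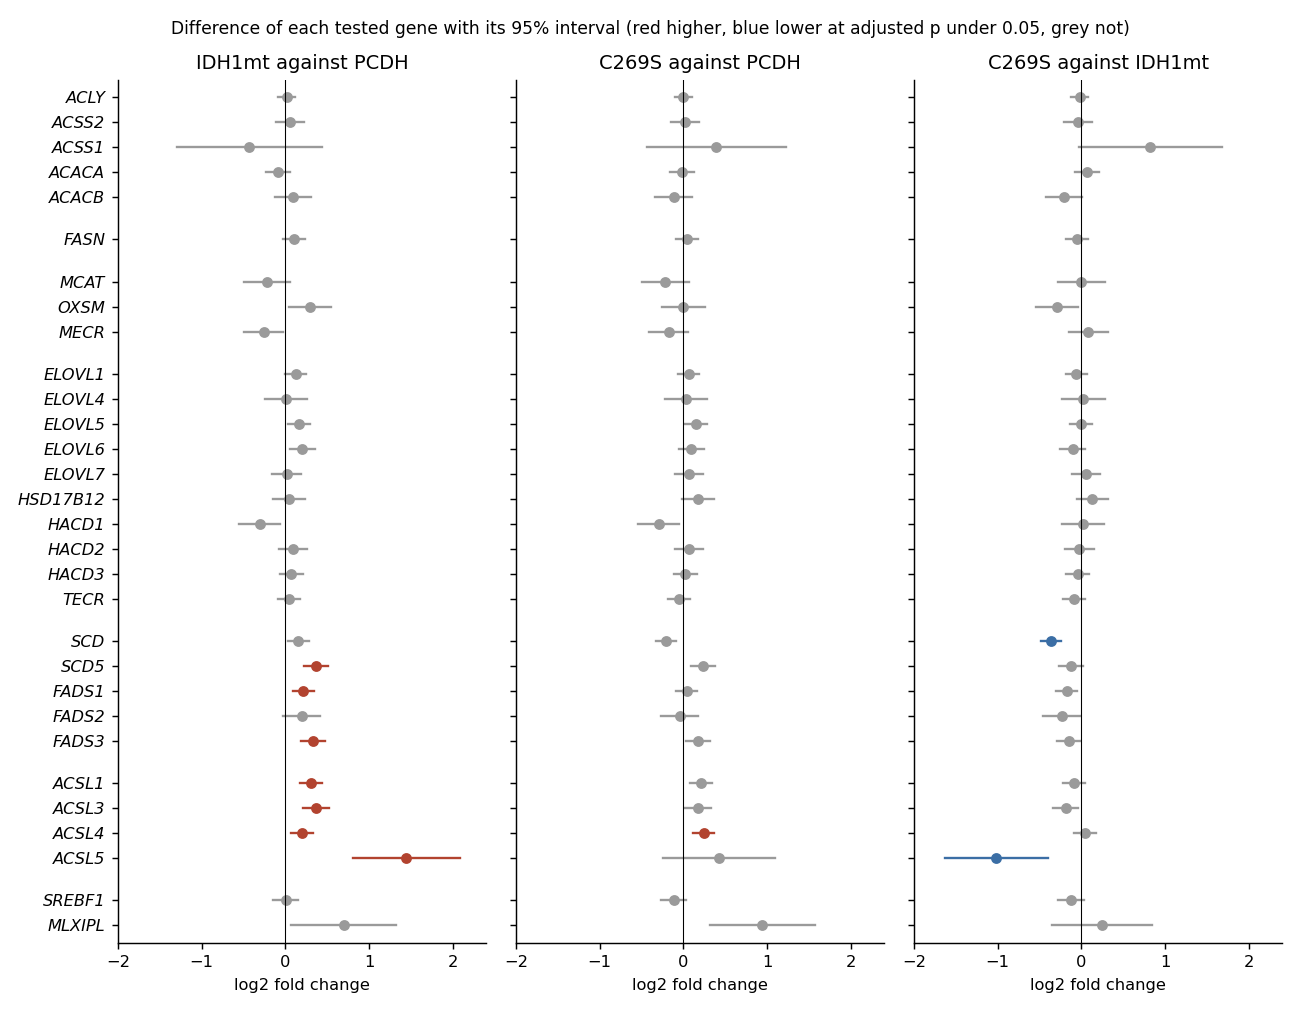
Log2 fold change of each of the 30 tested genes (points) with its 95% interval (lines), by enzyme step from supply at the top to transcription factors at the bottom, in the 3 comparisons. Red points, 7 in IDH1mt against PCDH and 1 in C269S against PCDH, mark genes that rose, and the 2 blue points in C269S against IDH1mt mark SCD and ACSL5, which fell.

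Per transcript length, the most abundant members were ACLY and SCD, with a mean over the 9 libraries of 92.3 and 82.8 FPKM, the deposited unit of fragments scaled by length and depth. ELOVL1 at 46.6, ACSL4 at 43.2, ELOVL5 at 33.9 and FASN at 23.1 FPKM came next. ACSL5 at 0.477, MLXIPL at 0.418 and ACSS1 at 0.219 FPKM were the lowest of the members tested. ACSL6, a synthetase of brain and red blood cells, had 7 reads in all over the C269S libraries, 12 over the IDH1mt and 1 over the PCDH libraries. ELOVL2, an elongase of polyunsaturated fatty acids, had 0 reads in every library, which allows up to 0.157 CPM in the shallowest one. That limit stands for 3 counts and covers counting error only. The gap between ACLY and SCD differed in size between groups, as a description with no test. On average, ACLY was above SCD in C269S and PCDH cells. The levels were 91.8 ± 2.55 and 72.3 ± 4.06 FPKM in C269S, and 91.8 ± 3.19 and 83.2 ± 4.68 FPKM in PCDH cells. In PCDH replicate 1 the order was reversed, with ACLY at 88.2 and SCD at 88.6 FPKM. In IDH1mt cells the levels, 93.2 ± 0.214 FPKM for ACLY and 93.0 ± 7.26 FPKM for SCD, lay within their spread (SD, n = 3 each).

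**Figure D2:**
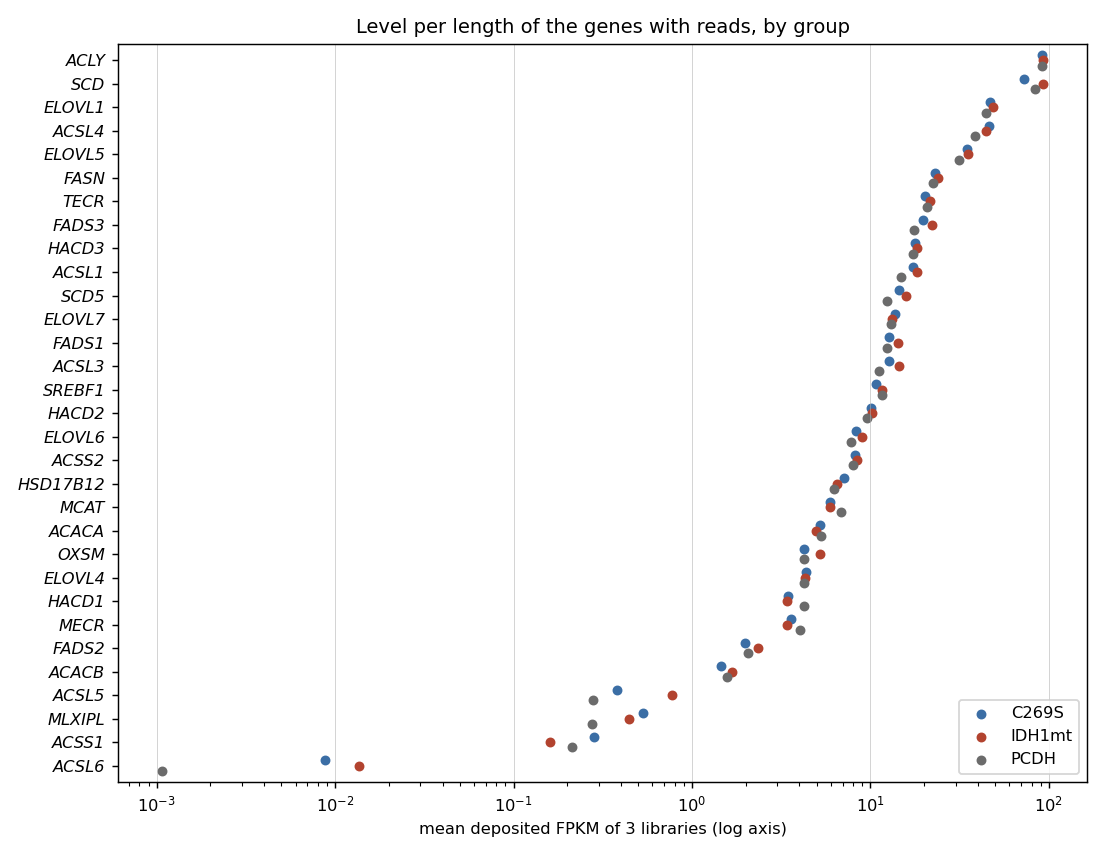
Mean deposited FPKM of 3 libraries on a log axis for the 31 members with reads, ordered by their mean over all libraries, with C269S in blue, IDH1mt in red and PCDH in grey. ACLY and SCD are at the top with 92.3 and 82.8 FPKM, and ACSL5 is the member near the bottom whose groups lie widest apart among those tested.

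Stearoyl-CoA desaturases put the first double bond into stearate and palmitate. SCD (ENSG00000099194, chr10:100347124-100364834, plus strand, GRCh38 here and below) had 409.8, 366 and 394 CPM in C269S, 468, 544 and 492 CPM in IDH1mt, and 481, 433 and 437 CPM in PCDH libraries. All C269S libraries lay below all others, while IDH1mt and PCDH libraries overlapped. SCD fell by 0.36 on the log2 scale in C269S against IDH1mt cells (SE 0.06, adjusted p = 0.000126), and its call held under each of the 17 alternatives run, with adjusted p between 2.4e-07 and 0.0194. Against PCDH cells its log2 fold change was -0.21 in C269S (SE 0.06, adjusted p = 0.0803) and 0.15 in IDH1mt (SE 0.06, adjusted p = 0.0841), neither past the threshold. The C269S difference passed without PCDH replicate 3, at -0.23 (adjusted p = 0.0144), with library size alone (0.0462) and with no filter on low counts (0.0430), and without PCDH replicate 1 the IDH1mt difference passed at 0.20 (adjusted p = 0.0410). SCD5, the paralog that is most abundant in brain (ENSG00000145284, chr4:82629539-82798857, minus strand), had 61.6, 64.6 and 62.3 CPM in C269S, 66.3, 66.3 and 73.7 CPM in IDH1mt, and 52.1, 52.9 and 55.5 CPM in PCDH libraries. No group overlapped another, with IDH1mt highest and PCDH lowest. SCD5 rose by 0.36 on the log2 scale in IDH1mt against PCDH cells (SE 0.07, adjusted p = 0.000485). In C269S cells its log2 fold change was 0.23 against PCDH (SE 0.07, adjusted p = 0.111) and -0.13 against IDH1mt (95% interval -0.27 to 0.01, adjusted p = 0.374). The difference from PCDH passed without PCDH replicate 3, at 0.26 (adjusted p = 0.0273), and in DESeq2 (adjusted p = 0.0439). SCD made up 83.2 ± 1.16% of the summed FPKM of both genes in C269S, 85.3 ± 1.32% in IDH1mt and 87.1 ± 0.918% in PCDH cells, as a description with no test. The sum itself was 86.8 ± 3.68 FPKM in C269S, 109 ± 7.11 FPKM in IDH1mt and 95.5 ± 4.41 FPKM in PCDH cells (SD, n = 3 each).

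The promoters of SCD, SCD5 and FADS3 are shown because these desaturases were called and their windows hold a CCAAT box, the binding motif of the general factor NF-Y that is common in promoters of lipid genes. Each is 250 bases before to 50 after the start of a transcript, 5′ to 3′ on the gene's strand, from RefSeq on GRCh38.p14, the first window listed for the gene. Capitals mark ATTGG or its reverse complement CCAAT. They lie at chr10:100346983-100347282 on the plus strand for SCD, at chr4:82798747-82799046 on the minus strand for SCD5 and at chr11:61891496-61891795 on the minus strand for FADS3.
SCD: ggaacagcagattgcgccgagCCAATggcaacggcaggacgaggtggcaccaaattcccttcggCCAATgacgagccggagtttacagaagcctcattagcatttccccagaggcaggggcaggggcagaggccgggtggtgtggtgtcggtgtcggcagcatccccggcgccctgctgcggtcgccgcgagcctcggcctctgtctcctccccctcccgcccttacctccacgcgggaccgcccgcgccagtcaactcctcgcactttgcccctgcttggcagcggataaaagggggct
SCD5: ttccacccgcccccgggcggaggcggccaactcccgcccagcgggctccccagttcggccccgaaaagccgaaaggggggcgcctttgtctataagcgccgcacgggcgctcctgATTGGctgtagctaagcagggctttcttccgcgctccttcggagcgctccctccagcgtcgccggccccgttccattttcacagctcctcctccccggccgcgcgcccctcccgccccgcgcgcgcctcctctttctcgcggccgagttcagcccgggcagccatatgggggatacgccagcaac
FADS3: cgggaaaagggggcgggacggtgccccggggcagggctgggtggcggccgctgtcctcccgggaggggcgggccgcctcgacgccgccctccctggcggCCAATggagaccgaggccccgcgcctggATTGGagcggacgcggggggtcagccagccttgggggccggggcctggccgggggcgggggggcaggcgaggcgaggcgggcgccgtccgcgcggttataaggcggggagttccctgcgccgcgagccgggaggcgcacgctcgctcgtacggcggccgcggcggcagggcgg
The boxes begin 229 and 186 bases before the start in SCD, 135 before it in SCD5, and 151 and 123 before it in FADS3. Windows were found for 29 of the 32 members. The promoter set used here held none for FASN, HSD17B12 and OXSM, so these genes were not searched. On either strand, ATTGG was present in 11 of the 29 (37.9%) and in 34.6% of all 35116 promoters of the same length. The hypoxia response core ACGTG was in 6 of 29, beside 21.4% of all promoters, and the E-box CACGTG, which contains ACGTG, in 2 of 29, beside 7.26%. The sterol response element TCACNCCAC was in 0 of 29, beside 1.13%. Of the 8 members called in any comparison, 4 held ATTGG and 0 held any of the other 3 motifs. These are matches of letters in 1 window per gene.

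The FADS desaturases act further along the chain, FADS2 and FADS1 at the delta-6 and delta-5 steps of polyunsaturated fatty acid synthesis and FADS3 on sphingoid bases. The 3 genes lie side by side on chromosome 11. FADS3 (ENSG00000221968, chr11:61873519-61892051, minus strand) had 119.7, 117 and 139 CPM in C269S, 147, 139 and 133 CPM in IDH1mt, and 113, 118 and 102 CPM in PCDH libraries. All IDH1mt libraries were above all PCDH libraries, and C269S libraries overlapped both. FADS3 rose by 0.33 on the log2 scale in IDH1mt against PCDH cells (SE 0.07, adjusted p = 0.00123). In C269S cells its log2 fold change was 0.17 against PCDH (SE 0.07, adjusted p = 0.280) and -0.15 against IDH1mt (SE 0.07, adjusted p = 0.247). FADS1 (ENSG00000149485, chr11:61799625-61829318, minus strand) had 133, 133 and 126 CPM in C269S, 139.8, 156 and 146 CPM in IDH1mt, and 134, 123 and 125 CPM in PCDH libraries. The IDH1mt libraries stood above all others, and C269S and PCDH libraries overlapped. FADS1 rose by 0.21 on the log2 scale in IDH1mt against PCDH cells (SE 0.06, adjusted p = 0.0172). The call was lost without PCDH replicate 2 (adjusted p = 0.0797), IDH1mt replicate 2 (0.139) or IDH1mt replicate 3 (0.0564), with library size alone (0.0640), and with limma on log2 FPKM plus 1 (0.0528) or plus 0.1 (0.0533). In C269S against IDH1mt cells FADS1 had a log2 fold change of -0.17 (SE 0.06, adjusted p = 0.107), which passed without PCDH replicate 3 (0.0411) and in a fit of those 6 libraries alone (0.0388). FADS2 was the least abundant of the 3, at 1.99 ± 0.240 FPKM in C269S, 2.35 ± 0.362 FPKM in IDH1mt and 2.05 ± 0.0415 FPKM in PCDH cells, and passed in no comparison. FADS1 and FADS2 share 490 exonic bases on opposite strands, which is 4.79% of the exons of FADS1, and the strand setting of the counts is not given in the sources used here, so these counts are uncertain there.

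**Figure D3:**
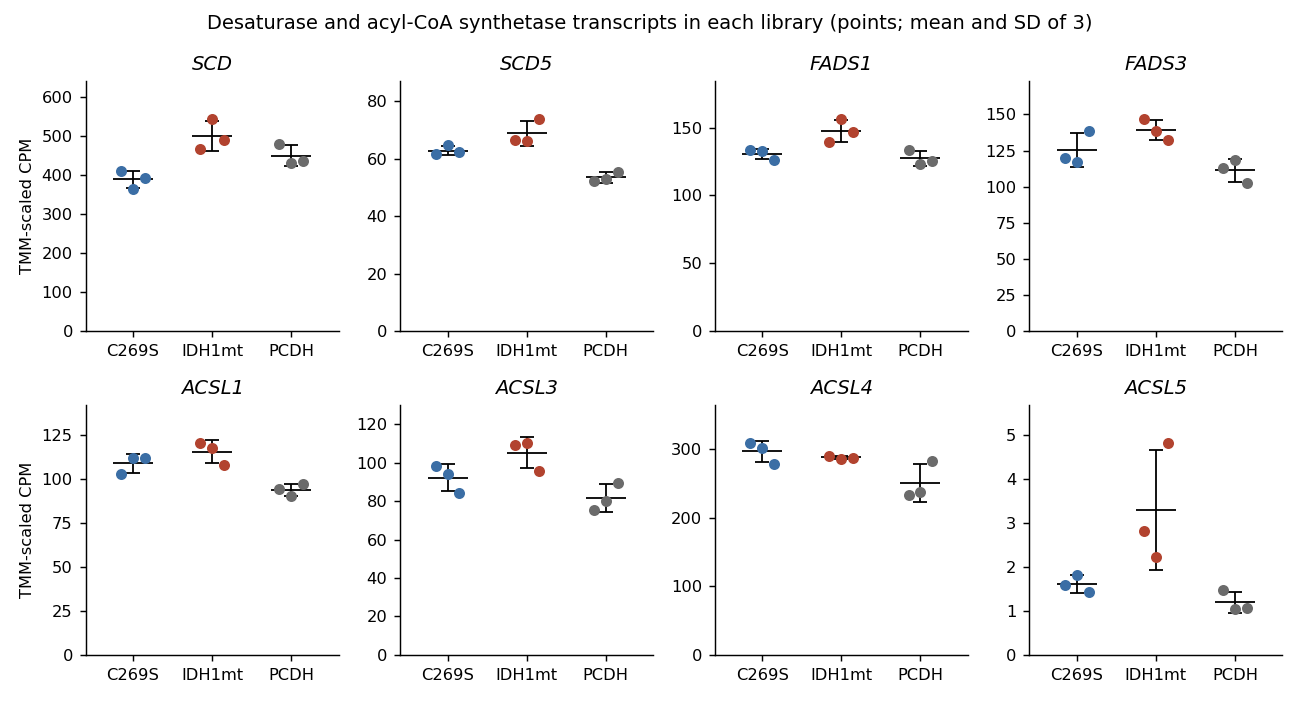
TMM-scaled CPM of the 8 members called in any comparison, with 1 point per library, the mean as a long bar and the SD of 3 libraries as whiskers, for C269S, IDH1mt and PCDH cells. SCD is lowest in C269S libraries (366 to 409.8 CPM), and IDH1mt libraries of the other 7 genes lie above all PCDH libraries.

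Long-chain acyl-CoA synthetases (ACSL) activate free fatty acids, palmitate among them. All 4 members tested of the 5 listed rose in IDH1mt against PCDH cells. ACSL3, which sits on the endoplasmic reticulum and lipid droplets (ENSG00000123983, chr2:222860934-222944639, plus strand), had 98.3, 93.9 and 84.5 CPM in C269S, 109, 110.3 and 95.9 CPM in IDH1mt, and 75.3, 80.2 and 89.4 CPM in PCDH libraries. The IDH1mt and PCDH libraries did not overlap, and C269S libraries overlapped both. ACSL3 rose by 0.37 on the log2 scale in IDH1mt against PCDH cells (SE 0.07, adjusted p = 0.000697), while in C269S its log2 fold change was 0.18 against PCDH (SE 0.07, adjusted p = 0.320) and -0.19 against IDH1mt (SE 0.07, adjusted p = 0.160). Without PCDH replicate 3 the C269S difference from PCDH passed, at 0.25 (adjusted p = 0.0302). Its promoter, at chr2:222860786-222861085 on the plus strand, is shown as the synthetase window that holds a CCAAT box, in capitals 75 bases before the start.
ACSL3: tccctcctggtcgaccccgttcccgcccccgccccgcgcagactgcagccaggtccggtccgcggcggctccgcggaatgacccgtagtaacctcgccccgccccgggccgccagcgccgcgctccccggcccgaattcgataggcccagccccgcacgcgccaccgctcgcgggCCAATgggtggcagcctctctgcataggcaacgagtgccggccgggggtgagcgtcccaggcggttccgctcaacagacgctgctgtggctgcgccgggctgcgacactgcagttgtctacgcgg
ACSL1, a synthetase of liver, fat and muscle among other tissues (ENSG00000151726, chr4:184755595-184826818, minus strand), had 103, 112 and 112 CPM in C269S, 121, 118 and 108 CPM in IDH1mt, and 94.6, 90.2 and 96.9 CPM in PCDH libraries. Every PCDH library was below all others, and C269S and IDH1mt libraries overlapped. ACSL1 rose by 0.30 on the log2 scale in IDH1mt against PCDH cells (SE 0.06, adjusted p = 0.00133). In C269S cells its log2 fold change was 0.21 against PCDH (95% interval 0.08 to 0.35, adjusted p = 0.101) and -0.09 against IDH1mt (95% interval -0.22 to 0.05, adjusted p = 0.560). The difference from PCDH passed without PCDH replicate 3, at 0.24 (adjusted p = 0.0214), and in DESeq2 (adjusted p = 0.0411).

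ACSL4, which prefers arachidonate and is known for its part in ferroptosis (ENSG00000068366, chrX:109624244-109733403, minus strand), was the most abundant synthetase, at 60.3 ± 1.03% of the summed FPKM of the 5 ACSL genes in C269S, 57.2 ± 1.29% in IDH1mt and 59.6 ± 1.44% in PCDH cells. It had 309.5, 302 and 279 CPM in C269S, 291, 286 and 288 CPM in IDH1mt, and 233, 238 and 283 CPM in PCDH libraries. PCDH replicate 3 lay within the range of C269S and just below that of IDH1mt, and the other PCDH libraries lay well below both. ACSL4 rose by 0.24 on the log2 scale in C269S against PCDH cells (SE 0.06, adjusted p = 0.0438) and by 0.20 in IDH1mt against PCDH cells (SE 0.06, adjusted p = 0.0312). Both calls were close to the threshold. The C269S call was lost in 12 of 17 alternatives, among them without PCDH replicate 1 (adjusted p = 0.283), PCDH replicate 2 (0.223), IDH1mt replicate 1 (0.0725), 2 (0.0629) or 3 (0.0828), and C269S replicate 1 (0.265) or 2 (0.206). The IDH1mt call was lost in 9 of 17, among them without PCDH replicate 1 (adjusted p = 0.190) or 2 (0.153) and without IDH1mt replicate 1 (0.106), 2 (0.0766) or 3 (0.0961).

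ACSL5, a synthetase abundant in intestine (ENSG00000197142, chr10:112374018-112428380, plus strand), had the largest fold change among the members tested from one of the lowest levels. Its read counts were 31, 36 and 31 in C269S, 67, 54 and 90 in IDH1mt, and 30, 25 and 24 in PCDH libraries, which is 1.42 to 1.82 CPM in C269S, 2.22 to 4.82 CPM in IDH1mt and 1.05 to 1.47 CPM in PCDH libraries. All IDH1mt libraries were above all others, with replicate 3 the highest, and C269S and PCDH libraries overlapped. ACSL5 rose by 1.45 on the log2 scale in IDH1mt against PCDH cells (SE 0.31, adjusted p = 0.00134), and the call held under all 17 alternatives, with a log2 fold change of 0.45 where 1 was added to each FPKM. It fell by 1.02 in C269S against IDH1mt cells (SE 0.30, adjusted p = 0.0463), a call lost in 9 alternatives. Without IDH1mt replicate 3 that difference was -0.65 (adjusted p = 0.395), and it was also lost without IDH1mt replicate 1 (0.0812), C269S replicate 1 (0.148), 2 (0.0870) or 3 (0.157). ACSL5 shares 144 exonic bases, 3.40% of its exons, with ZDHHC6 on the opposite strand, a palmitoyltransferase gene with a mean of 1011 reads per library. ZDHHC6 had a log2 fold change of 0.14 in IDH1mt against PCDH (adjusted p = 0.231) and -0.13 in C269S against IDH1mt cells (adjusted p = 0.379), and its part in the ACSL5 counts was not tested. The summed FPKM of the ACSL genes was 76.3 ± 2.92 in C269S, 78.2 ± 1.96 in IDH1mt and 65.1 ± 5.72 in PCDH cells (SD, n = 3 each).

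None of the 5 genes that supply acetyl-CoA and malonyl-CoA, nor FASN, passed the test in any of the 3 comparisons, and 0 of these 6 had an unadjusted p under 0.05. ACLY, which cleaves citrate to cytosolic acetyl-CoA, had 482, 469 and 496 CPM in C269S, 489.7, 487 and 489.9 CPM in IDH1mt, and 466, 488 and 496 CPM in PCDH libraries. The 3 groups overlapped. The 95% interval of its log2 fold change was -0.09 to 0.12 in IDH1mt against PCDH, -0.11 to 0.10 in C269S against PCDH and -0.12 to 0.08 in C269S against IDH1mt cells. FASN, the synthase that releases palmitate, had 221, 199 and 232 CPM in C269S, 209, 228 and 241 CPM in IDH1mt, and 211, 224 and 198 CPM in PCDH libraries, again overlapping. Its 95% interval was -0.03 to 0.23 in IDH1mt against PCDH, -0.09 to 0.17 in C269S against PCDH and -0.19 to 0.08 in C269S against IDH1mt cells. ACACA, the cytosolic acetyl-CoA carboxylase, averaged 68.5 ± 2.52 CPM in C269S, 65.1 ± 2.65 CPM in IDH1mt and 69.1 ± 4.32 CPM in PCDH cells. ACACB, the carboxylase at the mitochondrial membrane, averaged 21.2 ± 1.41 CPM in C269S, 24.4 ± 3.24 CPM in IDH1mt and 23.0 ± 2.17 CPM in PCDH cells. ACACA made up 78.2 ± 1.16% of their summed FPKM in C269S, 74.9 ± 1.70% in IDH1mt and 77.0 ± 0.612% in PCDH cells. ACSS2, which makes acetyl-CoA from acetate in cytosol and nucleus, averaged 44.2 ± 2.37 CPM in C269S, 45.5 ± 1.70 CPM in IDH1mt and 43.6 ± 4.47 CPM in PCDH cells. ACSS1, its mitochondrial counterpart, had 2.91, 2.53 and 1.98 CPM in C269S, 1.05, 1.44 and 1.72 CPM in IDH1mt, and 2.02, 3.12 and 0.488 CPM in PCDH libraries. It was low throughout and uneven in PCDH cells, and its PCDH range covered both other groups. All C269S libraries were above all IDH1mt libraries, with a log2 fold change of 0.82 (95% interval -0.03 to 1.68, adjusted p = 0.327). For ACSS1 in IDH1mt against PCDH cells the log2 fold change was -0.43 (SE 0.42, adjusted p = 0.567), and without PCDH replicate 3 it was -0.89 and passed (adjusted p = 0.0493).

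No gene of the elongation cycle was called in any comparison, with 10 of 11 tested. In IDH1mt against PCDH cells, 2 were higher and 1 lower at an unadjusted p under 0.05. ELOVL6, the elongase that takes palmitate to stearate, had 58.1, 64.9 and 60.6 CPM in C269S, 63.1, 65.2 and 69.2 CPM in IDH1mt, and 59.4, 53.2 and 59.2 CPM in PCDH libraries. All IDH1mt libraries were above all PCDH libraries, and C269S libraries overlapped both. Its log2 fold change in IDH1mt against PCDH cells was 0.20 (SE 0.07, adjusted p = 0.0644). It passed in DESeq2 (adjusted p = 0.0414), without PCDH replicate 3 (0.0291) and without C269S replicate 3 (0.0494). ELOVL5, which lengthens polyunsaturated chains, had 138, 138 and 126 CPM in C269S, 138, 132 and 135 CPM in IDH1mt, and 110.3, 125 and 127 CPM in PCDH libraries. PCDH replicate 1 was the lowest, and C269S and PCDH libraries overlapped while IDH1mt and PCDH did not. Its log2 fold change was 0.16 in IDH1mt against PCDH (SE 0.06, adjusted p = 0.0972) and 0.15 in C269S against PCDH cells (SE 0.06, adjusted p = 0.317). Without PCDH replicate 3 the IDH1mt difference was 0.20 and passed (adjusted p = 0.0217). ELOVL1, an elongase of saturated and monounsaturated very long chains, was the most abundant elongase per length, at 43.2 ± 2.28% of the elongases' summed FPKM in C269S, 44.1 ± 0.704% in IDH1mt and 44.1 ± 2.86% in PCDH cells. HACD1, a dehydratase of the cycle, had 14.2, 12.8 and 13.3 CPM in C269S, 15.9, 12.4 and 11.6 CPM in IDH1mt, and 17.5, 15.9 and 16.2 CPM in PCDH libraries. C269S libraries lay below all PCDH libraries, while IDH1mt replicate 1 reached into the PCDH range. Its log2 fold change was -0.30 in C269S against PCDH (SE 0.12, adjusted p = 0.284) and -0.31 in IDH1mt against PCDH cells (SE 0.12, adjusted p = 0.0866). Without IDH1mt replicate 1 the IDH1mt difference was -0.46 and passed (adjusted p = 0.0204), as it did with library size alone (0.0447). The other genes of the cycle, ELOVL4 and ELOVL7, the ketoacyl reductase HSD17B12, the dehydratases HACD2 and HACD3 and the enoyl reductase TECR, had log2 fold changes between -0.09 and 0.18 over the 3 comparisons. Among these, HSD17B12 passed in C269S against PCDH cells without PCDH replicate 3, at 0.30 (adjusted p = 0.0200).

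Of mitochondrial fatty acid synthesis, 3 genes were tested and none was called in any comparison. OXSM, the ketoacyl synthase, had 11.1, 11.0 and 9.83 CPM in C269S, 13.0, 12.4 and 13.9 CPM in IDH1mt, and 11.1, 11.1 and 9.85 CPM in PCDH libraries. All IDH1mt libraries were above all others. Its log2 fold change was 0.29 in IDH1mt against PCDH (SE 0.12, adjusted p = 0.114) and -0.29 in C269S against IDH1mt cells (SE 0.12, adjusted p = 0.202). Of the exons of OXSM, 21.6% lie under NGLY1 on the opposite strand, so its counts are uncertain. MECR, the enoyl reductase, had 13.2, 15.3 and 14.0 CPM in C269S, 11.7, 14.0 and 14.5 CPM in IDH1mt, and 16.0, 16.2 and 15.7 CPM in PCDH libraries, where the PCDH libraries were above all others. For MECR the log2 fold change was -0.26 in IDH1mt against PCDH (SE 0.11, adjusted p = 0.138) and -0.18 in C269S against PCDH cells (SE 0.11, adjusted p = 0.581). MCAT, the malonyl transferase, averaged 14.2 ± 2.70 CPM in C269S, 14.3 ± 2.30 CPM in IDH1mt and 16.6 ± 2.11 CPM in PCDH cells.

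The transcript of SREBF1, whose protein SREBP-1 drives fatty acid synthesis genes, was not called either. It had 81.5, 81.3 and 96.2 CPM in C269S, 87.7, 95.5 and 99.0 CPM in IDH1mt, and 97.0, 98.9 and 85.4 CPM in PCDH libraries, with overlap between all groups. The 95% interval of its log2 fold change was -0.15 to 0.16 in IDH1mt against PCDH and -0.27 to 0.03 both in C269S against PCDH and in C269S against IDH1mt cells. SREBF1 shares 6.92% of its exons with RAI1 on the opposite strand. MLXIPL, which encodes the glucose-responsive factor ChREBP, was low, with 2.14, 2.13 and 3.45 CPM in C269S, 2.57, 2.51 and 1.39 CPM in IDH1mt, and 1.52, 1.22 and 1.29 CPM in PCDH libraries. All C269S libraries were above all PCDH libraries, and IDH1mt replicate 3 lay within the PCDH range. The log2 fold change of MLXIPL was 0.94 in C269S against PCDH (SE 0.31, adjusted p = 0.137) and 0.70 in IDH1mt against PCDH cells (SE 0.31, adjusted p = 0.140).

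Of 13 genes tested for SREBP and LXR control, 2 rose and 2 fell in IDH1mt against PCDH cells (30.8%, beside 14.1% of all genes tested). The 4 were INSIG1, INSIG2, MID1IP1 and SREBF2, while SCAP and the SREBP proteases MBTPS1 and MBTPS2 did not pass. None was called in C269S against PCDH cells, beside 1.42% of all genes tested. There, 1 was higher and 2 lower at an unadjusted p under 0.05. In C269S against IDH1mt cells 2 rose and 1 fell (23.1%, beside 4.9%). INSIG1, which holds the SREBP escort SCAP in the endoplasmic reticulum and is itself an SREBP target, had 511, 451 and 447 CPM in C269S, 331, 343 and 341 CPM in IDH1mt, and 493, 508 and 540.4 CPM in PCDH libraries. The IDH1mt libraries lay below all others. INSIG1 fell by 0.60 on the log2 scale in IDH1mt against PCDH cells (SE 0.06, adjusted p = 2.2e-09), and was higher by 0.47 in C269S against IDH1mt cells (SE 0.06, adjusted p = 5.9e-07). INSIG2, which shares that role, moved in the opposite direction, with 38.8, 36.3 and 32.4 CPM in C269S, 53.9, 53.8 and 52.1 CPM in IDH1mt, and 37.9, 32.6 and 35.1 CPM in PCDH libraries. INSIG2 rose by 0.60 in IDH1mt against PCDH cells (SE 0.08, adjusted p = 3.05e-06) and fell by 0.57 in C269S against IDH1mt cells (SE 0.08, adjusted p = 1.61e-05). MID1IP1, which encodes a protein that helps acetyl-CoA carboxylase polymerise, had 133, 122 and 132 CPM in C269S, 102, 100.4 and 104 CPM in IDH1mt, and 159.8, 149 and 142 CPM in PCDH libraries. No group overlapped another. MID1IP1 fell by 0.56 in IDH1mt against PCDH cells (SE 0.06, adjusted p = 6.73e-08) and rose by 0.34 in C269S against IDH1mt cells (SE 0.06, adjusted p = 0.000604). SREBF2, the sterol counterpart of SREBF1 and named after its values were seen, averaged 150.1 ± 8.13 CPM in C269S, 171 ± 5.41 CPM in IDH1mt and 143 ± 8.67 CPM in PCDH cells, and rose by 0.25 in IDH1mt against PCDH cells (SE 0.06, adjusted p = 0.00459). Its log2 fold change in C269S against IDH1mt cells was -0.19 (SE 0.06, adjusted p = 0.0787), which did not pass.

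**Figure D4:**
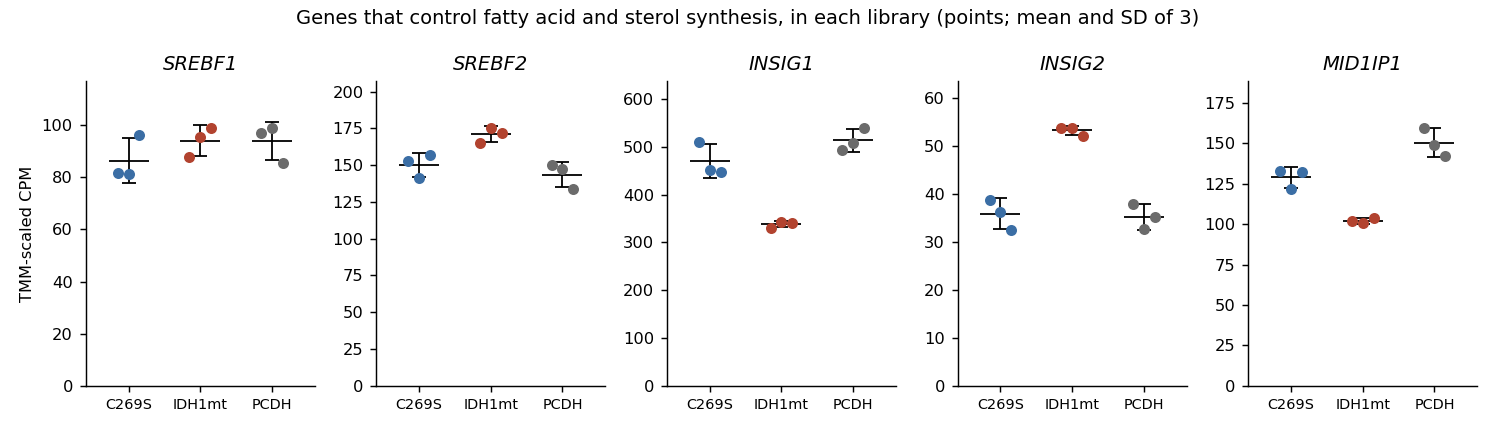
TMM-scaled CPM of SREBF1, SREBF2, INSIG1, INSIG2 and MID1IP1, with 1 point per library, the mean as a long bar and the SD of 3 libraries as whiskers, for C269S, IDH1mt and PCDH cells. IDH1mt libraries stand apart for SREBF2 (164.9 to 175.5 CPM), INSIG1 (331 to 343 CPM), INSIG2 (52.1 to 53.9 CPM) and MID1IP1 (100.4 to 104 CPM). SREBF1 overlaps between all groups.

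Around the pathway, most lists held at least 1 called gene in some comparison. Of 17 genes for carbon and NADPH supply, 4 rose and 2 fell in IDH1mt against PCDH cells (35.3%, beside 14.1% of all genes tested). The 4 include the introduced IDH1 (log2 fold change 2.61, adjusted p = 8.6e-25). Its rise follows from the design, so the 35.3% is raised by a gene that was added. SLC16A1, a transporter of lactate and pyruvate, averaged 211 ± 6.70 CPM in C269S, 317 ± 4.75 CPM in IDH1mt and 185 ± 19.8 CPM in PCDH cells. It rose by 0.78 in IDH1mt against PCDH cells (SE 0.06, adjusted p = 6.9e-11) and fell by 0.58 in C269S against IDH1mt cells (SE 0.06, adjusted p = 6.3e-08), where it was the 1 gene of this list called. IDH2, the mitochondrial NADP-dependent isocitrate dehydrogenase, averaged 103 ± 4.54 CPM in C269S, 115 ± 2.44 CPM in IDH1mt and 93.4 ± 4.16 CPM in PCDH cells, and rose by 0.30 in IDH1mt against PCDH cells (SE 0.06, adjusted p = 0.0011). In C269S against PCDH cells the introduced IDH1 was the 1 gene of the list called. Of 13 genes for uptake and binding, 1 was called in C269S against IDH1mt cells (7.69%, beside 4.9% of all genes). In C269S against PCDH cells 0 were called, beside 1.42% of all genes. There, 2 were higher and 0 lower at an unadjusted p under 0.05 in edgeR, and 1 was called higher by DESeq2. MFSD2A, a carrier of lysophospholipids with long polyunsaturated chains, rose by 0.33 in C269S against IDH1mt cells (SE 0.07, adjusted p = 0.00369).

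Of 10 acyl-CoA thioesterases and protein thioesterases, PPT1, which removes palmitate from proteins in lysosomes, was the 1 gene called. That is 10% in IDH1mt against PCDH cells, below the 14.1% of all genes tested. It averaged 106 ± 0.294 CPM in C269S, 93.3 ± 2.21 CPM in IDH1mt and 110.2 ± 3.33 CPM in PCDH cells, and fell by 0.24 in IDH1mt against PCDH cells (SE 0.06, adjusted p = 0.00624). Of 10 other acyl-CoA synthetases, ACSS3, a mitochondrial synthetase of short chains, was the 1 gene called. This is 10% in IDH1mt against PCDH cells, beside 14.1% of all genes, and 10% in C269S against IDH1mt cells, beside 4.9%. It had 9.65, 8.36 and 7.21 CPM in C269S, 4.67, 4.78 and 5.57 CPM in IDH1mt, and 8.51, 11.8 and 12.5 CPM in PCDH libraries, with all IDH1mt libraries below all others. ACSS3 fell by 1.13 in IDH1mt against PCDH cells (SE 0.16, adjusted p = 6.46e-06). It rose by 0.75 in C269S against IDH1mt cells (SE 0.17, adjusted p = 0.00484), a call lost without C269S replicate 1 (adjusted p = 0.0611) and with limma on log2 FPKM plus 1 (0.184) or plus 0.1 (0.166). Of 12 other elongation and desaturation genes, 1 rose and 1 fell in IDH1mt against PCDH cells (16.7%, near the 14.1% of all genes). In C269S against IDH1mt cells 1 of them rose (8.33%, beside 4.9% called in either direction). ELOVL3, an elongase of saturated chains, had 10.4, 10.4 and 9.65 CPM in C269S, 7.41, 7.08 and 7.24 CPM in IDH1mt, and 10.5, 12.0 and 12.0 CPM in PCDH libraries. ELOVL3 fell by 0.67 in IDH1mt against PCDH cells (SE 0.13, adjusted p = 0.000493). It rose by 0.49 in C269S against IDH1mt cells (SE 0.13, adjusted p = 0.0277), a call lost without any 1 of the IDH1mt libraries or without C269S replicate 1 or 2 (adjusted p 0.0823 to 0.108), and with the replicate number as a block (0.0503). DEGS1, the ceramide desaturase, rose by 0.18 in IDH1mt against PCDH cells (SE 0.06, adjusted p = 0.0388), a call lost in 10 of 17 alternatives.

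Of 30 genes for fatty acid oxidation, 2 rose and 3 fell in IDH1mt against PCDH cells, and these 16.7% are near the 14.1% of all genes called. In that list 1 gene rose in C269S against PCDH cells (3.33%, beside 1.42%) and 1 fell in C269S against IDH1mt cells (3.33%, beside 4.9%). CPT1C, the brain form of carnitine palmitoyltransferase, fell by 0.32 in IDH1mt against PCDH cells (SE 0.08, adjusted p = 0.00748), with the call lost without PCDH replicate 2 (log2 fold change -0.20, adjusted p = 0.129) and with limma on log2 FPKM plus 1 (0.0761) or plus 0.1 (0.0738). ACAD9, an acyl-CoA dehydrogenase and assembly factor of complex I, fell by 0.34 (SE 0.09, adjusted p = 0.0103), lost without IDH1mt replicate 1 (0.0932) or 2 (0.0512). HADHA, the alpha subunit of the trifunctional protein, rose by 0.23 (SE 0.06, adjusted p = 0.0117), lost without PCDH replicate 1 (0.0532) or 2 (0.0879) or IDH1mt replicate 1 (0.105). PPARGC1A, a coactivator of mitochondrial genes, rose by 0.56 in C269S against PCDH cells (SE 0.14, adjusted p = 0.0405) and lost its call in 11 of 17 alternatives. ACOX3, a peroxisomal oxidase of branched chains, fell by 0.33 in C269S against IDH1mt cells (SE 0.09, adjusted p = 0.0327) and lost it in 9. Of 7 partners of mitochondrial fatty acid synthesis, 0 were called in any comparison, with 0 at an unadjusted p under 0.05. Of 7 AMPK subunits and its kinase, 0 were called, with 1 lower at an unadjusted p under 0.05 in IDH1mt against PCDH cells. Over all genes tested, 14.1% were called in IDH1mt against PCDH, 1.42% in C269S against PCDH and 4.9% in C269S against IDH1mt cells. With 7 genes per list, counts of 0 were near these shares. DESeq2 and the other alternatives also called 0 in these last lists.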

How the data were processed

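RNA sequencing of 9 libraries was used, with 3 per group. The deposited gene counts are whole-number reads, and the deposited FPKM values were scaled by the authors per length and library size. HISAT2 2.0.5, featureCounts 1.5.0-p3 and the builds GRCh38 and hg38 are named in the submitters' processing notes. The library kit and strand setting are not given in the sources used here. By their names, the CS columns were taken as C269S, mt as IDH1mt and Control as PCDH. Counts were filtered with filterByExpr, scaled by TMM (trimmed mean of M values) and tested with edgeR 4.0.16 (R 4.3.3), with all 9 libraries in 1 robust quasi-likelihood fit, a mean per group and no covariate. The SE is the absolute log2 fold change over the square root of F. The procedure was tested on simulated data. Replicate pairs of a group differed by more than sampling noise, most of all those with PCDH replicate 3, so none was counted as 1 sample.

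Named were the members called in any comparison, with every library's value, other members by value or range, and up to 3 called genes per other list and comparison. The result of the uptake list in IDH1mt against PCDH is not reported here. The members and lists were chosen with earlier results of these data known. Alternatives used DESeq2 version 1.42.0 and limma version 3.58.1. An exact two-sided permutation of 3 against 3 libraries cannot give a p under 0.1, so single values were tested in the fit across all genes. Promoters are from RefSeq, GRCh38.p14.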

Additional observations from a re-analysis of the deposited data

How the results depend on the processing

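Each result was recomputed under 17 alternatives: DESeq2 size factors, no filter on low counts, library size alone, only the 6 libraries of a comparison, the replicate number as a block, the DESeq2 test, limma on log2 FPKM plus 1 or plus 0.1, and each of the 9 libraries left out. The calls of SCD5, FADS3, ACSL1, ACSL3 and ACSL5 in IDH1mt against PCDH and of SCD in C269S against IDH1mt held under all 17. The count of 7 members that rose in IDH1mt against PCDH was 5 to 9, 6 with the replicate block and 5 to 9 without 1 library. The count of 1 that rose in C269S against PCDH was 0 with library size alone, 6 libraries, the replicate block and limma on FPKM plus 1 or plus 0.1, 3 with the DESeq2 test, and 0 to 5 without 1 library, 5 without PCDH replicate 3. The count of 2 that fell in C269S against IDH1mt was 1 with library size alone, the replicate block and limma on FPKM plus 1 or plus 0.1, and 1 to 3 without 1 library, 3 without PCDH replicate 3. The count of 0 that fell in C269S against PCDH was 1, SCD, with library size alone and with no filter, and 0 to 1 without 1 library, 1 without PCDH replicate 3. The count of 0 that fell in IDH1mt against PCDH was 1, HACD1, with library size alone, and 0 to 1 without 1 library, with 1 without PCDH replicate 3, ACSS1, and 1 without IDH1mt replicate 1, HACD1. The count of 0 that rose in C269S against IDH1mt was 0 throughout. The cause of these changes was not tested.

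Differences near 0, none called, changed sign. ACLY in C269S against IDH1mt was 0.00776 with library size alone. In C269S against PCDH, ACLY was 0.000147 with DESeq2 size factors, 6.72e-06 with no filter, 0.000170 with 6 libraries, 0.000128 with the DESeq2 test, 0.000977 with FPKM plus 1 and 0.000989 with FPKM plus 0.1. ACLY in IDH1mt against PCDH was -0.030 with library size alone, and SREBF1 there was -0.044 with library size alone and -0.00329 with no filter. Without 1 library, ACLY ranged from -0.043 to 5.1e-05 in C269S against IDH1mt, from -0.029 to 0.017 in C269S against PCDH and from -0.0091 to 0.035 in IDH1mt against PCDH. ACACA ranged from -0.050 to 0.038 and FASN from -0.0026 to 0.10 in C269S against PCDH, FASN from -0.11 to 0.0050 in C269S against IDH1mt, and SREBF1 from -0.060 to 0.053 in IDH1mt against PCDH. Of 408 recomputed values of single members, 344 kept direction and side of the threshold. Of 510 for called genes of the other lists, an extension chosen after seeing the data, 446 did and 0 changed sign.

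Library size alone moved the split of all genes called in IDH1mt against PCDH to 918 higher and 1691 lower, beside 1211 and 1164. Over all genes, C269S against PCDH called 149 higher and 90 lower, but 57 and 28 with limma on FPKM plus 1 and 548 and 355 without PCDH replicate 3. C269S against IDH1mt called 387 and 440, but 182 and 261 with limma on FPKM plus 1. Same-numbered libraries of different groups did not deviate together, with correlations of -0.289 to 0.0815 and 0 of 9 above 0.1. The shared number was therefore not taken as a pairing in the main fit. Of 18 pairs with different numbers, 4 were above 0.1, within a range of -0.131 to 0.225. These 4 each joined a PCDH and a C269S library, the highest being PCDH replicate 2 with C269S replicate 3. The source of these correlations was not tested. At these depths ACSL5, ACSS1 and MLXIPL rest on few reads and their differences are the least precise.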
